A study of Mus musculus with 7 samples.

Results

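The 2 sequencing batches of one nanopore study of mouse neural stem cells (NSCs) were compared, 3 samples against 3. Batch 1 held wild-type (WT) replicate 2 and Smchd1-null replicates 1 and 2, and batch 2 held WT replicates 3 and 4 and Smchd1-null replicate 3, which makes 6 of the 7 samples of the series. WT replicate 1 was sequenced in both batches and its counts were summed by the authors, so it stayed outside the comparison. All cells were NSCs of strain FVB/N, the dividing precursor cells of the brain, and all were grown with EGF and bFGF. The null cells carried the MommeD1 mutation of Smchd1, a gene whose protein silences chromatin.

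The assay was nanopore sequencing, on a PromethION, of cDNA made from poly(A) RNA with no PCR step. Batch 1 was prepared with kit SQK-DCS108 and native barcodes EXP-NBD103, batch 2 with kit SQK-DCS109 and EXP-NBD114, and each batch had its own flow cell. Kits, protocol, barcodes and flow cell differed together, along with the samples themselves, so they cannot be told apart here. Batch 1 held 1 WT sample and batch 2 held 1 null sample, so genotype was a term in every test of a gene. The labels do not say whether samples of a group came from separate animals or cultures, and p-values measure only the spread between these samples.

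In a direct cDNA library a primer of T bases anneals to the poly(A) tail and the reverse transcriptase copies the RNA from its 3′ end, then switches template at the 5′ end. The enzyme has to read through the whole RNA, so length, base composition and stretches of A inside an RNA are the features such protocols are known to be sensitive to. Many RNAs of these cells have near-identical copies in the genome, above all the processed pseudogenes of ribosomal protein genes, which are intronless copies of an mRNA. A read of such a family is counted wherever its primary alignment falls.

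Library sizes ran from 2741820 to 7736498 counts in batch 1 and from 3867257 to 5851927 in batch 2. WT replicate 4 received the lowest quality weight in the fit, 0.358, against 0.786 to 1.65 for the other 5 samples, and it also carried the most counts of astrocyte markers. Smchd1 was counted at 55.6 CPM (counts scaled to a common library size) in WT replicate 2, 74.3 in WT replicate 3 and 55.9 in WT replicate 4. In the null samples it was at 17.0, 12.6 and 18.3 CPM, so the genotype labels held in both batches. Its batch log2 fold change was 0.31 ± 0.16 (SE), with a limma adjusted p of 0.224.

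Of 13107 genes that passed the filter on low counts, 1479 (11.3%) differed between batches at an adjusted p under 0.05 by limma-voom with sample quality weights. Of these, 723 (5.52%) were higher in batch 2 and 756 (5.77%) higher in batch 1. The median size of a called change was 0.59 on the log2 scale, and 234 genes moved by over 1. Those large changes were mostly in one direction, with 166 genes (1.27% of those tested) over 1 higher in batch 2 and 68 over 1 higher in batch 1. edgeR's quasi-likelihood test called 240 genes (1.83%), 111 higher in batch 2 and 129 higher in batch 1, and all 240 were among limma's calls. Without WT replicate 4 limma called 1348 genes, of which 1190 were among the 1479.

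The call count depended on the 2 samples that were alone in their genotype and batch. Without WT replicate 2 or without Smchd1-null replicate 3, limma called 1 gene, while 1651 and 1376 genes had an unadjusted p under 0.05. In either case the batch difference rests on 1 genotype, with 1 sample on one side. A test of whether the batch difference itself differed between genotypes called 0 genes by limma, with 226 at an unadjusted p under 0.05 and 2 residual degrees of freedom, and no other tool was run for it.

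The sequences below show the runs of A in Bc1, the gene with the largest change, and base composition, which had the most regular gradient. The first is the whole of Bc1 (chr7:144914470-144914637, + strand, GRCm38, the single exon of a noncoding RNA gene), with every run of at least 5 A in capitals.
Bc1: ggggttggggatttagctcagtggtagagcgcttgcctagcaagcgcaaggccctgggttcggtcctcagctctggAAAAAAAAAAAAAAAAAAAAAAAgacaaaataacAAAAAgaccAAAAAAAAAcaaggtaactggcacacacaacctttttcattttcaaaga
The longest run has 23 A, at bases 77 to 99 of 168, and A makes up 41.7% of the RNA.

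The others are the last 90 coding bases of genes at either end of the range of base composition, with G and C in capitals. They were picked after the values were seen, as the 2 genes of smallest p among those called in the outer quintiles of GC content. Their transcripts come from Gencode M21 on GRCm38. The first pair was higher in batch 2 and lies on the mitochondrial genome, mt-Nd4 at chrM:10167-11544 and mt-Nd5 at chrM:11742-13565, both on the + strand.
mt-Nd4: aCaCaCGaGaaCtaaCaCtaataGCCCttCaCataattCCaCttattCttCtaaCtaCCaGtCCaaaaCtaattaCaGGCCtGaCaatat
mt-Nd5: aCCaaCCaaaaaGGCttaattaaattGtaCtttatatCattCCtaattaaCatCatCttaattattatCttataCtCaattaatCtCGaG
The second pair was higher in batch 1, Ptms (parathymosin, chr6:124913681-124920103, - strand) and Metrn (meteorin, a secreted glial factor, chr17:25793221-25797136, - strand).
Ptms: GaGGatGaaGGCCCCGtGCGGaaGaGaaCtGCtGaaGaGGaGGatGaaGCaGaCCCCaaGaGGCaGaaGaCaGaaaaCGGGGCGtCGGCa
Metrn: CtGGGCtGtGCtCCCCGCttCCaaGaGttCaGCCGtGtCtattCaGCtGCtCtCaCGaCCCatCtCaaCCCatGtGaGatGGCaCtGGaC
G and C made up 33 and 22 of the 90 bases in the first pair, and 53 and 52 of 90 in the second. The contrast was smaller for nuclear genes of the lowest quintile that were higher in batch 2. Ednrb and Taok1 had 44 and 46 of 90, with 43.9% and 40.6% GC over the transcript. Over the whole transcript, GC was 35.6% for mt-Nd4, 37.1% for mt-Nd5, 65.3% for Ptms and 57.9% for Metrn.

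Bc1 had the largest difference of any tested gene. It is a short neuronal RNA transcribed by RNA polymerase III and it has no poly(A) tail of its own. It was at 2.41 CPM in WT replicate 2 and at 8.14 and 6.42 CPM in null replicates 1 and 2, and at 82.7, 45.6 and 94.8 CPM in WT replicates 3 and 4 and null replicate 3. The lowest batch 2 sample stood far above the highest batch 1 sample, with a log2 fold change of 3.96 ± 0.28 (limma adjusted p 9.09e-05, edgeR 0.00299). WT replicate 1, which holds reads of both batches, was at 49.4 CPM, inside the range of batch 2.

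Across protein-coding genes, Spearman's rho of the longest run of A with the log2 fold change was 0.28, as a description across genes. The median log2 fold change was 0.01 where the longest internal run had at most 7 A and 0.12 where it had 16 or more. The shares called higher in batch 2 were 5.18% and 5.29%, and 8.83% and 7.97% for runs of 8 to 11 and of 12 to 15 A. The shares called higher in batch 1 were 5.61, 2.12, 3.43 and 2.07% from the shortest to the longest runs. A log2 fold change over 1 towards batch 2 was called for 1.22, 1.21, 1.65 and 0.92% in the same order, so large changes did not gather in long runs. Within the middle quintile of GC content the medians ran 0.06, 0.10, 0.01 and 0.08 from the shortest runs (up to 7 A) over 8 to 11 and 12 to 15 to the longest.

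**Figure D1:**
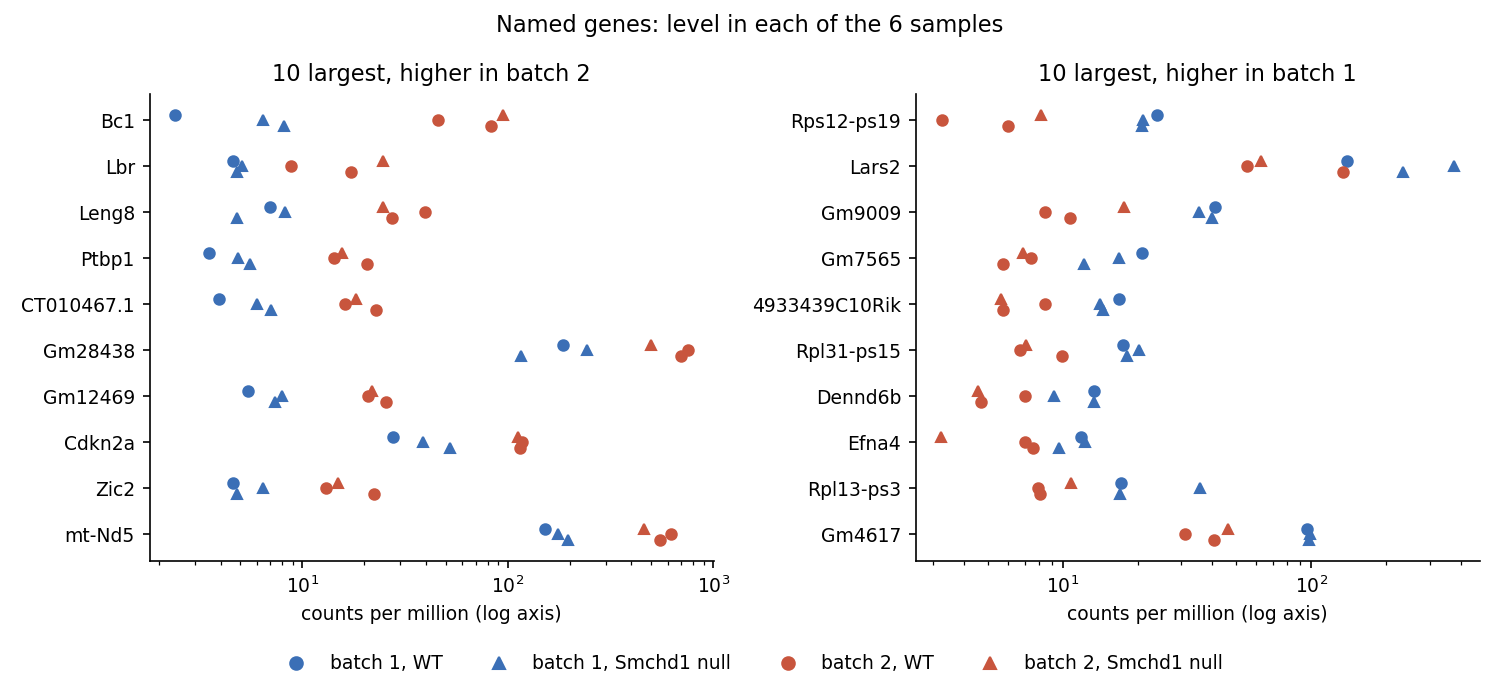
Level in CPM (log axis) of the 10 genes with the largest log2 fold change in each direction, 1 point per sample, blue for batch 1 and red for batch 2, circles for WT and triangles for Smchd1 null; the genes were chosen for not overlapping between batches. Bc1 spans 2.41 to 8.14 CPM in batch 1 and 45.6 to 94.8 CPM in batch 2, while for Lars2 the nearest samples of the batches are at 139 and 134 CPM.

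Of the other genes with the largest differences towards batch 2, several have well-known roles. Cdkn2a, which encodes the cell cycle inhibitors p16Ink4a and p19Arf, was at 27.8, 52.2 and 38.8 CPM in WT replicate 2 and null replicates 1 and 2. In batch 2 it was at 114, 118 and 112 CPM in WT replicates 3 and 4 and null replicate 3. These 3 values lay closely together and apart from batch 1, with a log2 fold change of 1.59 ± 0.16 (limma adjusted p 0.000714, edgeR 0.0201). Zic2, a zinc finger transcription factor of neural development, was at 4.59 to 6.42 CPM in batch 1 and 13.1 to 22.4 CPM in batch 2, a log2 fold change of 1.58 ± 0.27. Ptbp1, a repressor of neuronal exons, was at 3.50 to 5.55 CPM in batch 1 and 14.3 to 20.6 CPM in batch 2 (1.83 ± 0.26). Leng8 (1.98), the lamin B receptor gene Lbr (2.04) and the histone H3K4 methyltransferase gene Setd1a (1.46) were among the 12 largest as well, and all 3 end inside another gene, as described further on.

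In the opposite direction, 6 of the 12 largest were processed pseudogenes. Rps12-ps19 was at 23.9, 20.7 and 21.1 CPM in WT replicate 2 and null replicates 1 and 2, and at 5.999, 3.27 and 8.19 CPM in WT replicates 3 and 4 and null replicate 3. Its log2 fold change was -1.72 ± 0.27 (limma adjusted p 0.00477). Gm4617, whose closest coding transcript is Ptma, the gene of prothymosin alpha, was at 95.8 to 99.3 CPM in batch 1 and 31.0 to 46.1 CPM in batch 2 (-1.21 ± 0.13, adjusted p 0.000921). Ptma itself had a log2 fold change of -0.27 and was not called (adjusted p 0.117).

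Lars2, the mitochondrial leucyl-tRNA synthetase gene, followed another pattern. It was at 139, 235 and 376 CPM in WT replicate 2 and null replicates 1 and 2, and at 134, 54.9 and 62.7 CPM in WT replicates 3 and 4 and null replicate 3. The nearest samples of the batches were WT replicates 2 and 3, and the spread within each batch was wide (log2 fold change -1.55 ± 0.32, limma adjusted p 0.0132, edgeR 0.115). Gm23935, a gene of type miRNA of 57 bases on chromosome 16, ordered the samples much as Lars2 did. It was at 176, 297 and 498 CPM in batch 1 and at 192, 103 and 127 CPM in batch 2 in the same order of samples (-1.03 ± 0.28, adjusted p 0.0336, edgeR 0.170). No count of this library type stands for a mature miRNA.

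Base composition went with the batch difference more closely than any other property examined. Protein-coding genes were divided into quintiles by the GC content of their longest transcript. In the lowest quintile (31.9 to 44.1% GC), 242 of 2208 genes were higher in batch 2 and 18 higher in batch 1, with a median log2 fold change of 0.23. In the highest quintile (55.8 to 71.3% GC), 54 of 2208 (2.45%) were higher in batch 2 and 295 (13.4%) higher in batch 1, with a median of -0.24. The quintiles between them had medians of 0.16, 0.06 and -0.07, so the difference fell step by step with GC. Across the 11038 protein-coding genes, Spearman's rho of GC with the log2 fold change was -0.46. This is a description across genes, which are not independent and share the 6 libraries.

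Gene length, as deposited (the summed exons of a gene), gave the second gradient. From the shortest quintile (up to 2683 bases) to the longest (8112 bases or more), the median log2 fold change of protein-coding genes ran -0.10, -0.03, 0.04, 0.11 and 0.20. Calls higher in batch 2 numbered 74 (3.35%) in the shortest and 236 (10.7%) in the longest quintile, against 6.05% of all protein-coding genes. Calls higher in batch 1 numbered 191 (8.65%) and 22 (0.996%), against 4.67%. Spearman's coefficient was 0.29 for length, and GC and length were themselves related across these genes (rho -0.28). Both gradients were seen inside the other. Among genes of the lowest GC quintile the median went from 0.15 for the shortest genes to 0.28 for the longest, and in the highest GC quintile from -0.27 to -0.10.

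The samples agreed on these gradients one by one. The rho of GC with each sample's deviation from the gene mean was 0.37, 0.26 and 0.30 in WT replicate 2 and null replicates 1 and 2, and -0.32, -0.19 and -0.30 in WT replicates 3 and 4 and null replicate 3. All 3 samples of a batch lay on one side of 0. These deviations are from the mean of the same 6 samples, so they sum to 0 for each gene.

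**Figure D2:**
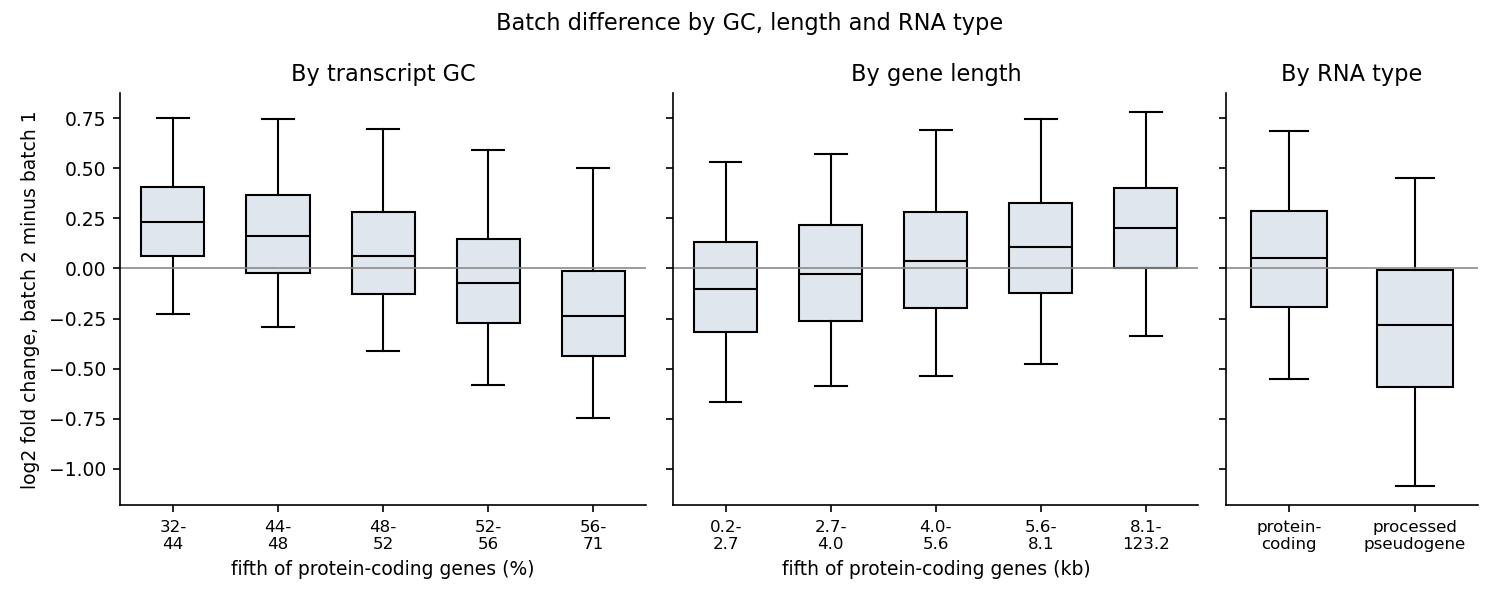
Log2 fold change (batch 2 minus batch 1) of protein-coding genes in quintiles by transcript GC (%) and by gene length (kb), and of protein-coding genes beside processed pseudogenes; the line is the median, the box the middle of the genes from the first to the last quartile, and the whiskers the 5th to 95th percentile. Medians fall from 0.23 to -0.24 with GC and climb from -0.10 to 0.20 with length, and the pseudogene median is -0.28.

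Single genes show the 2 ends of the GC range. Ptms was at 854, 839 and 772 CPM in WT replicate 2 and null replicates 1 and 2, and at 508, 449 and 371 CPM in WT replicates 3 and 4 and null replicate 3 (log2 fold change -0.996 ± 0.099, limma adjusted p 0.00065). Metrn was at 343 to 383 CPM in batch 1 and 177 to 217 CPM in batch 2 (-0.88 ± 0.09). On the low side among nuclear genes, the endothelin receptor gene Ednrb (43.9% GC) was at 136 to 189 CPM in batch 1 and 273 to 419 CPM in batch 2 (0.88 ± 0.11). The batches did not overlap for any of the 3, as for 1395 of the 1479 called genes and 4319 of all 13107 tested. Like the genes whose bases are shown above, Ednrb was picked after the values were seen.

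RNA types differed in how they were placed. Protein-coding genes had calls in both directions, 668 higher in batch 2 (6.05%) and 516 higher in batch 1 (4.67%) of 11038, close to the shares over all genes. Processed pseudogenes had 212 of 1479 higher in batch 1 (14.3%, against 5.77% of all genes) and 22 higher in batch 2 (1.49%, against 5.52%), with a median log2 fold change of -0.28. edgeR placed 47 of them higher in batch 1 and 6 higher in batch 2. Of 64 transcribed processed pseudogenes 11 were higher in batch 1 and 2 higher in batch 2. Of 28 unprocessed pseudogenes 6 were higher in batch 2 and 0 higher in batch 1, and edgeR called 3 and 0. Of 173 long intergenic noncoding RNAs 8 were higher in batch 2 (4.62%) and 3 higher in batch 1 (1.73%). Of 72 antisense genes 2 (2.78%) and 3 (4.17%) were, against 5.52% and 5.77% of all genes. Both classes were counted at a low level, with a median of the mean log2 CPM of 2.43 and 2.30, against 4.80 for protein-coding genes.

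Processed pseudogenes are short, with a median length of 495 bases against 4754 for protein-coding genes. With the trend on length removed, 45 of them were higher in batch 1 and 89 higher in batch 2, and with the trend on GC removed 163 and 18. With both removed the counts were 28 and 76 and the median log2 fold change was -0.0039. Among processed pseudogenes themselves, rho with the log2 fold change was 0.05 for length and -0.24 for GC. The trends were fitted over all tested genes, the pseudogenes among them.

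Most processed pseudogenes called here resemble a ribosomal protein mRNA. Taking the transcribed ones in, 583 of 1543 had a ribosomal protein gene as closest coding transcript (at least 85% identity over at least 50% of the pseudogene), and 125 of these 583 were higher in batch 1 and 11 higher in batch 2. These are 21.4% and 1.89%, against 5.77% and 5.52% of all genes. Another 879 resembled other coding transcripts, with 95 (10.8%) and 13 (1.48%) called. Of the 124 pseudogenes higher in batch 1 whose ribosomal protein parent was tested, the parent was called higher in batch 1 for 34 and not called for 90. Because such copies share reads with the parent, the count of one locus is uncertain, and sums over a family are less so.

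The copies of Rpl13, a protein of the large ribosomal subunit, are an example. Gm12918 (chr4:10848420-10849055), 100% identical to the Rpl13 transcript, took 1411, 1469 and 1554 CPM in WT replicate 2 and null replicates 1 and 2, and 845, 683 and 758 CPM in WT replicates 3 and 4 and null replicate 3. Rpl13-ps6 took 195 to 223 CPM in batch 1 and 95.7 to 112 CPM in batch 2. Their log2 fold changes were -0.93 ± 0.09 and -0.96 ± 0.10 (limma adjusted p 0.00065 for both), and Rpl13 itself was at -0.41 (adjusted p 0.0268). The sum of Rpl13 and its 11 tested pseudogenes was 4455 to 4908 CPM in batch 1 and 2741 to 3307 in batch 2, a difference of -0.60 on the log2 scale, and Rpl13 itself supplied 5.93% of it.

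Summed in this way, 67 of 82 ribosomal protein families were lower in batch 2 and 15 higher, with a median difference of -0.19. The direction goes by batch means, and in some families it rested on WT replicate 4. The Rps19 family, counted as lower, was at 2700 to 3087 CPM in batch 1. In batch 2 it was at 3209 and 3181 CPM in WT replicate 3 and null replicate 3, and at 2325 CPM in WT replicate 4. The Rpl13 family was lower in every batch 2 sample. In the 74 families with a tested pseudogene the parent supplied a median of 10.3% of the counts. Of the 82 ribosomal protein genes themselves, 13 were called higher in batch 1 (15.85%, against 5.77% of all genes). In batch 2, 3 were higher (3.66%, against 5.52%), and the median was -0.12. By edgeR, 2 were higher in batch 1 and 1 higher in batch 2. Rpl39 was at 715 to 831 CPM in batch 1 and 447 to 483 in batch 2 (-0.69 ± 0.09), and Rps20 at 3801 to 3990 and 2013 to 2744 (-0.60 ± 0.09). Rpl38 went the other way, with 79.4 to 116 CPM in batch 1 and 135 to 159 in batch 2 (0.69 ± 0.12). With the trend on GC removed 6 ribosomal protein genes were higher in batch 2 and 4 higher in batch 1, while the median of the list was -0.11.

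**Figure D3:**
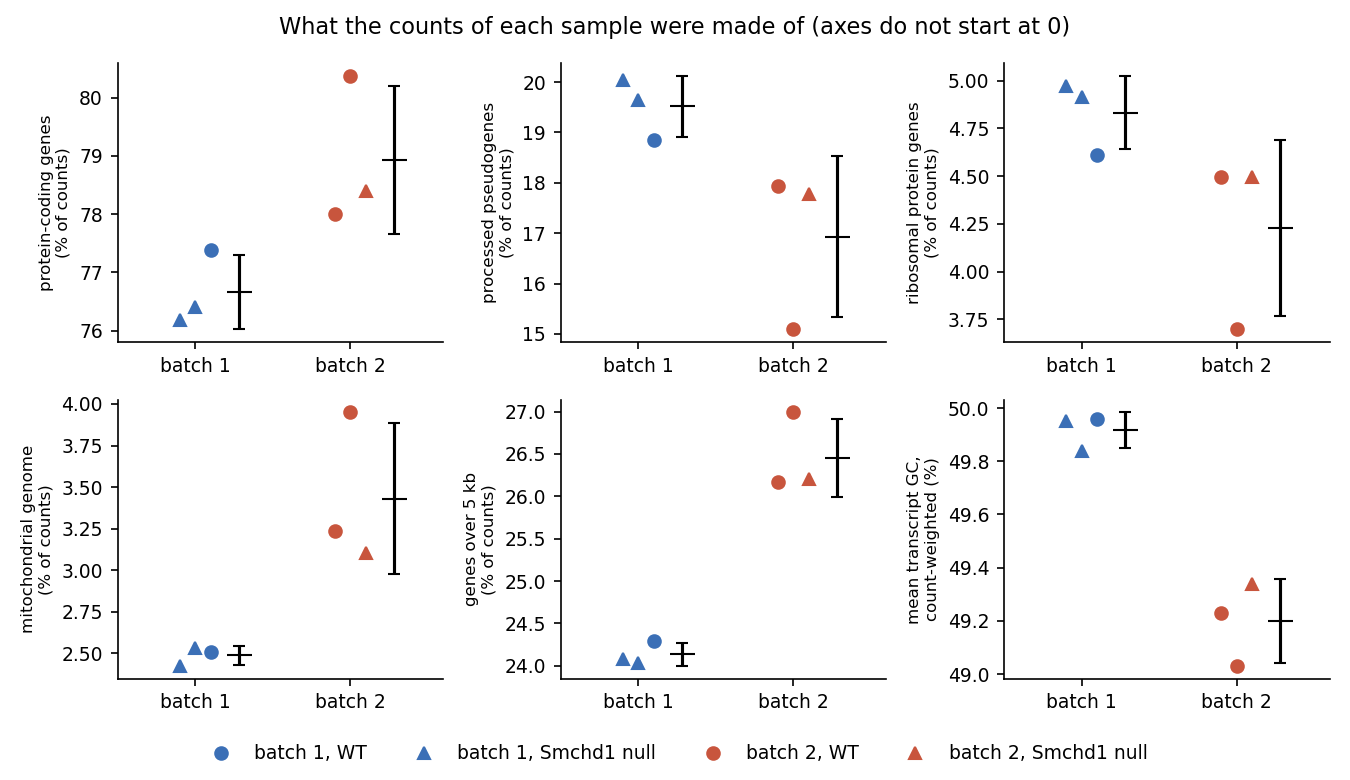
Shares of each sample's counts in 5 gene classes and the count-weighted mean GC of its transcripts, in percent, by batch; points are samples (circles WT, triangles Smchd1 null), and the bar beside them is the mean ± SD of 3 samples. None of the 6 quantities overlaps between batches, and WT replicate 4 lies at the outer end of batch 2 in each panel.

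The make-up of whole libraries showed the same classes. Processed pseudogenes took 19.5% ± 0.61 (SD, n = 3) of counts in batch 1 and 16.9% ± 1.595 (SD, n = 3) in batch 2. Protein-coding genes took 76.7% ± 0.64 and 78.9% ± 1.27, and genes of over 5 kb 24.1% ± 0.14 and 26.4% ± 0.46. The mitochondrial genome took 2.49% ± 0.06 and 3.43% ± 0.45, and ribosomal protein genes 4.83% ± 0.19 and 4.23% ± 0.46. Long noncoding genes made up 1.502% ± 0.04 and 1.31% ± 0.05. The count-weighted mean GC of transcripts was 49.9% ± 0.07 and 49.2% ± 0.16.

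Processed pseudogenes and mean GC were not tested. Of 11 quantities that were (the other shares above, all pseudogenes together, the 10 largest genes, 2 measures of length, library size and genes detected), 9 did not overlap, each with an exact permutation p of 0.1 (two-sided, 20 assignments), which is the smallest that 3 samples against 3 allow, and 0.122 after adjustment over the 11. Library size (exact p 0.9) and the number of genes detected (0.7) overlapped. Genotype was not a term in these tests, and the batches were unequal in genotype, so the 2 are partly mixed in these differences. WT replicate 4 set much of the spread in batch 2, with 3.95% of counts from the mitochondrial genome against 3.24% and 3.10% in WT replicate 3 and null replicate 3, but those 2 also lay outside the 2.42 to 2.53% of batch 1. Without it, the difference between batch means went from -0.60 to -0.34 percentage points for ribosomal protein genes, from -2.58 to -1.66 for processed pseudogenes and from 0.94 to 0.68 for the mitochondrial genome.

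The 13 protein genes of the mitochondrial genome, which encode subunits of the respiratory chain and ATP synthase on one circular molecule, were unequal in their batch difference. Of the 13, 8 were higher in batch 2 (61.5%, against 5.52% of all genes) and 0 higher in batch 1 by limma, with a median log2 fold change of 0.34. edgeR called 4 and 0, and without WT replicate 4 limma again called 8 and 0. With the GC trend removed the counts were 4 and 1, with a median of 0.09. Subunits of complex I had the largest values. mt-Nd5 was at 152, 196 and 176 CPM in WT replicate 2 and null replicates 1 and 2, and at 549, 624 and 460 CPM in WT replicates 3 and 4 and null replicate 3 (1.55 ± 0.13, limma adjusted p 0.000135, edgeR 0.0137). mt-Nd4 was at 1274, 1274 and 1303 CPM in batch 1 and 3275, 3839 and 2697 CPM in batch 2 (1.22 ± 0.10). The batch 1 samples were almost equal for mt-Nd4, and the lowest batch 2 sample was well above them.

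mt-Nd3 was at 114 to 215 CPM in batch 1 and 389 to 600 CPM in batch 2 (1.41 ± 0.19). mt-Nd4l (0.90), the cytochrome oxidase subunits mt-Co1 (0.63) and mt-Co2 (0.34), mt-Nd1 (0.35) and the cytochrome b gene mt-Cytb (0.29) were called as well. The others did not pass. mt-Co3 had a log2 fold change of -0.13, mt-Atp6 0.06 and mt-Atp8 -0.07, mt-Nd2 0.24 and mt-Nd6 0.29. mt-Co3 was at 3354 to 3742 CPM in batch 1 and 3115 to 3827 CPM in batch 2, which overlap. Transcript GC of the 13 genes was 31.9 to 41.1%, all in the lowest quintile of protein-coding genes, and it did not order them, with 38.9% for mt-Co3 and 37.1% for mt-Nd5. Among the mitochondrial ribosomal RNAs, mt-Rnr1 was higher in batch 2 (0.79 ± 0.16, adjusted p 0.0124), and mt-Rnr2 was not called (0.30 ± 0.23).

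**Figure D4:**
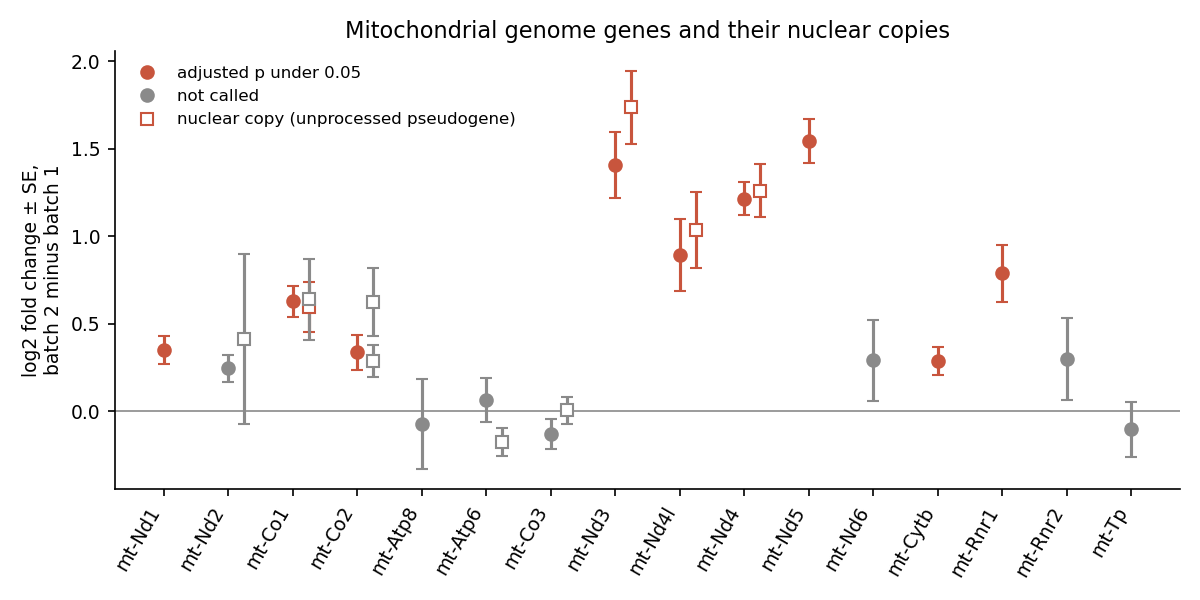
Log2 fold change ± SE (batch 2 minus batch 1) of the 13 protein genes, both ribosomal RNA genes and mt-Tp of the mitochondrial genome (filled points, red where the limma adjusted p was under 0.05) and of nuclear unprocessed pseudogenes that match them (open squares, drawn over the gene they match). mt-Nd3, mt-Nd4 and mt-Nd5 lie between 1.22 and 1.55, and mt-Co3 and mt-Atp8 just under 0. Some copies lie near their mitochondrial gene, as for mt-Nd4 (1.26 against 1.22). Others lie further off, such as Gm28438 (1.74, mt-Nd3 1.41), Gm13341 (0.62, mt-Co2 0.34) and Gm10925 (-0.17, mt-Atp6 0.06).

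A stretch of chromosome 1 holds near-identical copies of part of the mitochondrial genome, and 4 of the 6 unprocessed pseudogenes higher in batch 2 were such copies. Gm28438 (chr1:24612775-24613119, - strand) matched mt-Nd3 at 99.7% identity and was at 117 to 244 CPM in batch 1 and 500.0 to 755 CPM in batch 2 (1.74 ± 0.21). Gm28439 matched mt-Nd4 at 100% and had a log2 fold change of 1.26. Gm10222, which matched mt-Nd4l, was at 1.04, and Gm29216, which matched mt-Co1, at 0.60. The copies of mt-Co3 (Gm28437, 0.01) and mt-Atp6 (Gm10925, -0.17) were not called, and neither were those mitochondrial genes. Gm28661, a 100% match to mt-Co2, was not called either (0.29, adjusted p 0.0631), although mt-Co2 was. On chromosome 2, Gm13341 (0.62, matching mt-Co2) and Gm13340 (0.64, matching mt-Co1) were not called, while both of those mitochondrial genes were. A read of either cannot be placed with certainty, and their values are not independent.

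The largest differences towards batch 2 gathered in genes that end inside another gene. For each protein-coding gene it was asked whether an exon of another gene overlaps the first or the last 100 bases of its longest transcript. Of 723 genes overlapped at the 3′ end only, 112 were higher in batch 2 (15.5%) and 29 higher in batch 1 (4.01%), with a median log2 fold change of 0.23. Of 9135 genes free at both ends, 503 (5.51%) and 424 (4.64%) were called, with a median of 0.05. Of 1102 genes overlapped at the 5′ end only, 45 (4.08%) and 61 (5.54%) were called.

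The contrast was widest for large changes. A log2 fold change over 1 towards batch 2 was called for 74 of the 723 genes (10.2%, against 1.27% of all genes), for 50 of the 9135 (0.547%) and for 8 of the 1102 (0.726%). Put the other way, of 136 protein-coding genes over 1 higher in batch 2, 78 (57.4%) were overlapped at the 3′ end, as were 7.26% of all protein-coding genes tested. Of 13 protein-coding genes over 1 higher in batch 1, 0 were. Genes overlapped at the 3′ end were counted at a lower level (median of the mean log2 CPM 3.49, against 4.90 for genes free at both ends). At a mean log2 CPM of 3 to 5, 24 of 289 overlapped genes (8.30%) and 22 of 3711 others (0.593%) were over 1 higher in batch 2. edgeR called 26 of 801 and 15 of 10237, and with both the GC and length trends removed limma called 63 and 30.

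**Figure D5:**
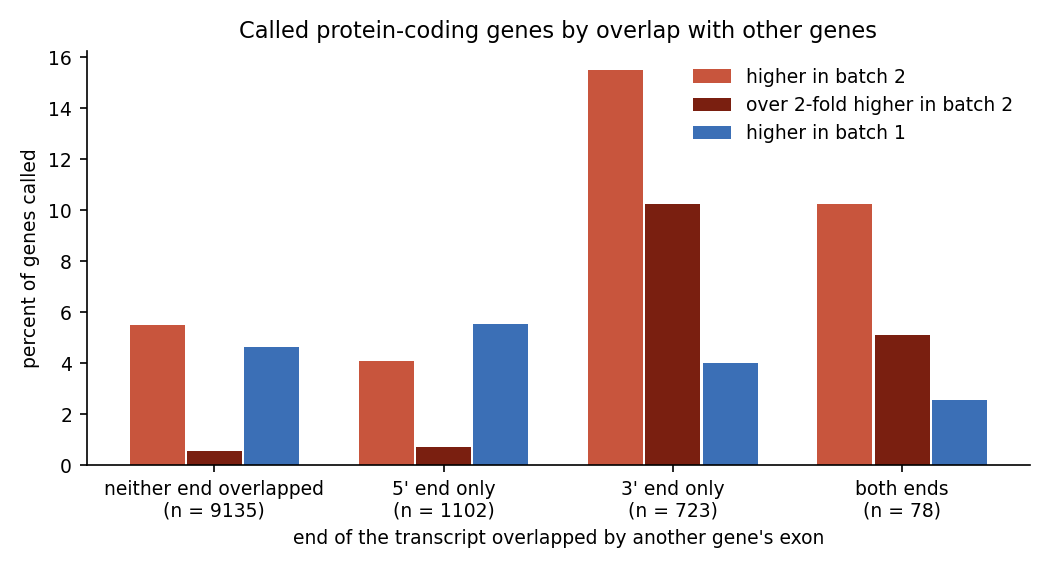
Percent of protein-coding genes called at a limma adjusted p under 0.05 by which end of the transcript another gene's exon overlaps (first or last 100 bases; n under each group), for genes higher in batch 2, for those of them over 2-fold higher, and for genes higher in batch 1. The genes overlapped at the 3′ end only have the tallest bars for batch 2, at 15.5% and 10.2%, against 5.51% and 0.547% for genes free at both ends.

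Notch1, the receptor that keeps neural stem cells undifferentiated, was the largest of these among the named genes. It was at 1.75, 2.22 and 4.45 CPM in WT replicate 2 and null replicates 1 and 2, and at 19.0, 14.5 and 14.4 CPM in WT replicates 3 and 4 and null replicate 3 (log2 fold change 2.42 ± 0.34, limma adjusted p 0.00279, edgeR 0.0325). At its 3′ end it overlaps Gm13568 over 414 bases (chr2:26457903-26458316), and further inside 0610009E02Rik over 964 bases (chr2:26458416-26459379), both on the opposite strand. Lbr overlaps Dnah14 over 440 bases and Leng8 overlaps Leng9 over 263 bases, both on opposite strands. Leng8 was at 7.001, 4.81 and 8.25 CPM in batch 1 and 27.4, 39.4 and 24.8 CPM in batch 2. The tissue inhibitor of metalloproteinases Timp3 (2.16 ± 0.45), which overlaps Syn3 over 1733 bases, was at 0.655 to 1.31 CPM in batch 1 and 3.66 to 13.2 CPM in batch 2. Beta-catenin, Ctnnb1 (1.20 ± 0.21), overlaps Ulk4 over 475 bases, and the mitotic gene Cdc20 (1.27 ± 0.20) overlaps Elovl1 over 53 bases.

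By default featureCounts leaves a read unassigned when it overlaps 2 genes, and the strand setting of the counting is not given in the sources used here. For these genes the counted level may therefore be that of the reads that could be assigned, not of the RNA. Whether reads were left unassigned was not tested. Not every overlapped gene differed. Ccnd1, which encodes cyclin D1 and overlaps LTO1 over 818 bases, had a log2 fold change of 0.24 (adjusted p 0.17), and the oligodendrocyte factor gene Olig1 0.10.

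Gene lists by function were spread around the shares over all genes. Of 36 lists of pathways, complexes and cell type markers, those of the mitochondrial genome and of sex-linked genes were set aside for this count. In the rest, 773 nuclear genes were tested, of which 54 (6.99%, against 5.52%) were higher in batch 2 and 58 (7.50%, against 5.77%) higher in batch 1. Of the 9 over 1 higher in batch 2, 7 were overlapped at the 3′ end (among them Notch1, Timp3, Lbr, Cdc20, Tnr and Ctnnb1), as were 55 of the 773. The remaining ones were Ptbp1, which has antisense genes elsewhere in its exons, and Ddx58, the RNA sensor RIG-I (1.27 ± 0.35).

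Several lists had calls mostly towards batch 1, to be read against 5.77% of all genes higher in batch 1 and 5.52% higher in batch 2. Of 75 tested genes for mitochondrial ribosomal proteins, which are encoded in the nucleus, 10 were higher in batch 1 (13.3%) and 0 higher in batch 2. Mrps16 was at 205, 180 and 190 CPM in WT replicate 2 and null replicates 1 and 2, and at 124, 120 and 116 CPM in WT replicates 3 and 4 and null replicate 3 (-0.70 ± 0.09). Mrpl4 (-0.62), Mrps11 (-0.67) and Mrps26 (-0.69) were called too. Of 17 host genes of small nucleolar RNAs 3 were higher in batch 1, Dancr (-0.83 ± 0.15), Snhg20 (-0.64) and Snhg5 (-0.57), and edgeR called the same number. Proteasome subunit genes had 4 of 36 higher in batch 1 (Psmb5, Psmd7, Psmd3 and Psmd8, -0.37 to -0.56) and 1 higher in batch 2, but the median of the list was 0.06, edgeR called 0 in either direction, and with the GC trend removed the counts were 1 and 0.

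Among immediate early genes, 3 of 20 were higher in batch 1 (15%, against 5.77% of all genes) and 0 higher in batch 2. All 3 encode AP-1 factors. Junb was at 31.3 to 33.8 CPM in batch 1 and 15.8 to 23.3 CPM in batch 2 (-0.62 ± 0.16), and Jund (-0.49 ± 0.14) and Jun (-0.43 ± 0.13) followed. Their transcripts have 62.6, 67.1 and 55.5% GC. None of the 3 was called by edgeR or with the GC trend removed, where the list had 1 gene higher in batch 2 and 0 higher in batch 1. The class I antigen-presenting genes H2-K1 (-0.65 ± 0.10) and H2-D1 (-0.50 ± 0.11) were the 2 genes higher in batch 1 among 18 of the interferon and antigen list.

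The glycolysis list had 3 of 23 genes higher in batch 1 (13.0%, against 5.77%) and 1 higher in batch 2 (4.35%, against 5.52%). Aldoa was at 281 to 329 CPM in batch 1 and at 192, 278 and 175 CPM in WT replicates 3 and 4 and null replicate 3, and Ldha at 1124 to 1357 and at 731, 1149 and 807 CPM. WT replicate 4 lay inside the range of batch 1 for Ldha and just under it for Aldoa. Without that sample 8 genes of the list were higher in batch 1. Aldoc, the brain form of aldolase and a marker of astrocytes, was higher in batch 2 (0.76 ± 0.16), with 836 CPM in WT replicate 4 against 384 and 365 CPM in WT replicate 3 and null replicate 3.

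Other lists had calls mostly towards batch 2, to be read against 5.52% of all genes higher in batch 2. Of 34 genes with very long coding transcripts, 6 were higher in batch 2 and 0 higher in batch 1, with a median of 0.30, and edgeR called 0 in either direction. Ank2, a giant ankyrin of axons, was at 268, 180 and 188 CPM in WT replicate 2 and null replicates 1 and 2, and at 332, 406 and 285 CPM in WT replicates 3 and 4 and null replicate 3 (0.54 ± 0.10, limma adjusted p 0.00876). Trrap, a scaffold of histone acetyltransferases (0.58 ± 0.14), was also called. With the length trend removed 0 genes of this list were called, and its median was -0.03.

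Of 38 SR and hnRNP splicing factor genes, 6 were higher in batch 2 (15.8%, against 5.52%) and 1 higher in batch 1, with a median of 0.17. edgeR called 2 and 0, and with the GC trend removed limma called 3 and 1 with a median of 0.03. Son, a nuclear speckle protein, was at 177 to 180 CPM in batch 1 and 238 to 273 CPM in batch 2 (0.50 ± 0.09), and Hnrnpr had a log2 fold change of 0.49 ± 0.09. Hnrnpd went the other way (-0.53 ± 0.10). Among 7 tested nuclear-retained noncoding RNAs, Malat1 was called, at 124 to 171 CPM in batch 1 and 186 to 260 CPM in batch 2 (0.50 ± 0.13), and Neat1 (-0.02 ± 0.33) was not.

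Nuclear genes of oxidative phosphorylation had calls in both directions, 12 of 81 higher in batch 2 (14.8%, against 5.52%) and 5 higher in batch 1 (6.17%, against 5.77%). The complex I subunit genes Ndufa8 (0.63 ± 0.10) and Ndufa12 (0.68 ± 0.10) and the cytochrome c gene Cycs (0.43 ± 0.09) were higher in batch 2, and the complex III gene Uqcr10 (-0.56 ± 0.10) higher in batch 1. Without WT replicate 4 the counts were 11 and 12, and by edgeR 2 and 0. Among 36 short coding transcripts 6 were higher in batch 2 (16.7%) and 4 higher in batch 1 (11.1%), with Tomm7 (0.50) and Gng5 (-0.55) at either side. Cholesterol synthesis had 2 and 2 of 23, with Hmgcs1 (0.37) among the former and Mvd (-0.67) and Dhcr7 (-0.64) as the latter.

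Lists of the cell cycle, of stress and of signalling are read against 5.52% of all genes higher in batch 2 and 5.77% higher in batch 1. Of 39 S phase genes 1 was higher in batch 2 (Mcm4, a subunit of the replicative helicase, 0.54), and 0 higher in batch 1. Of 42 genes of G2 and M phase 3 were higher in batch 2 (Lbr, Cdc20 and the proliferation marker Mki67, 0.48) and 3 higher in batch 1 (7.14% each), among them the kinase gene Aurkb (-0.55). WT replicate 4 was lowest for both lists. Its S phase genes summed to 2116 CPM, against 3168 to 3499 CPM in the other samples. Its G2 and M phase genes summed to 4623 CPM, against 5849 to 6417 CPM. Without it, 3 S phase and 6 G2 and M phase genes were higher in batch 2, and 0 and 3 higher in batch 1. The amino acid response had Psat1 (0.44) and Slc7a5 (-0.64), the unfolded protein response Pdia4 (0.68), and the heat shock list Dnajb1 (-0.56). Of 20 EGF and FGF signal genes, the receptor gene Fgfr1 was higher in batch 1 (-0.36 ± 0.10) and 0 higher in batch 2. Besides Notch1, Hes6 was called in the Notch list (-0.59 ± 0.14, higher in batch 1). The Wnt list had Ctnnb1, the regional list the forebrain factor gene Emx2 (0.49 ± 0.12), and the extracellular matrix list Timp3 and Tnr. Of 6 tested histone genes, Hist1h1c was higher in batch 2 (0.67 ± 0.15). By edgeR, 2 genes of the G2 and M phase list and 1 of the Notch list were higher in batch 2. In the other lists of this paragraph edgeR called 0 genes in either direction.

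Markers of NSCs were counted in all 6 samples, with all 15 of the radial glia and stem cell list tested. Fabp7, the brain fatty acid binding protein, was at 5039, 4446 and 4716 CPM in WT replicate 2 and null replicates 1 and 2, and at 6740, 9498 and 6184 CPM in WT replicates 3 and 4 and null replicate 3 (0.50 ± 0.10). Ptprz1, a receptor phosphatase of radial glia, was higher in batch 2 too (0.63 ± 0.10). The intermediate filament gene Nes, whose transcript has 55.5% GC, was higher in batch 1, with 355 to 403 CPM against 212 to 282 CPM (-0.66 ± 0.10, adjusted p 0.00411). Fabp7 and Nes, both used as markers of NSCs, thus differed in opposite directions between batches.

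Astrocyte markers summed to 976 to 1435 CPM in batch 1 and to 1358, 3915 and 1419 in WT replicates 3 and 4 and null replicate 3. Of 13 tested, the gap junction gene Gja1 (0.75 ± 0.11) and Aldoc were higher in batch 2. Gja1 was at 67.0 to 84.5 CPM in batch 1 and 118 to 134 CPM in batch 2, so that its batches did not overlap with or without WT replicate 4. Gfap, the defining filament of astrocytes, stayed at 0 to 6.02 CPM in the 6 samples. The part of other cells in the batch differences was not tested. Of 11 neuron and 11 oligodendrocyte lineage genes tested, 0 were called by limma or by edgeR, against 11.3% and 1.83% of all genes. Lists of 11 genes are too small for 0 calls to be told from those shares. Oligodendrocyte lineage markers summed to 1896 CPM in WT replicate 4, against 1096 to 1146 CPM in the other samples. Markers of microglia summed to 3.69 to 8.75 CPM in both batches, with C1qa, C1qb, Tmem119 and Tyrobp at 0, and those of endothelial cells to 4.01 to 8.02.

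Of the genes linked to sex, Kdm5d, Eif2s3y, Uty and Ddx3y of the Y chromosome were counted in every sample, and 0 of the 4 were called by limma or edgeR. Xist had 0 to 2 counts per sample. Uty had the largest of the 4 values (0.55 ± 0.19, limma adjusted p 0.0793).

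The only annotated nuclear ribosomal RNA gene tested, CT010467.1 on chromosome 17, was higher in batch 2. It had 18, 19 and 46 counts in WT replicate 2 and null replicates 1 and 2, and 88, 94 and 85 counts in WT replicates 3 and 4 and null replicate 3 (1.76 ± 0.25, limma adjusted p 0.00307). WT replicate 1 had 451 counts, more than any of the 6. snRNA, snoRNA, scaRNA and misc_RNA genes together took 0.0119 to 0.0148% of counts in the 6 samples.

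WT replicate 1 holds reads of both batches and was not in the fit. Among the 723 genes higher in batch 2, its median difference from WT replicate 2 was 0.55 on the log2 scale, where that of WT replicates 3 and 4 was 0.65. Among the 756 genes higher in batch 1 the values were -0.51 and -0.60. WT replicate 2 is in the fit, helped to choose these genes and is the reference of both differences, so these values are a description. In library make-up WT replicate 1 did not lie between the batches throughout. Genes of over 5 kb took 28.8% of its counts and its count-weighted median gene length was 2999 bases, both above every batch 2 sample (up to 26.99% and 2879 bases), and its 10 largest genes took 5.26%, less than in any of the 6 samples.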

How the data were processed

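The deposited files give 1 whole-number count per gene and sample and the gene length in bases. The authors base-called with Guppy, aligned with minimap2 2.17 to mm10 and counted primary alignments with featureCounts in long-read mode on Gencode M23. Symbols, types, transcripts and coordinates (1-based) came from Gencode M21 on the same GRCm38 build; 55154 of 55335 identifiers matched. Genes were filtered with filterByExpr and scaled by TMM, and CPM use that library size. The test was limma 3.58.1 voomWithQualityWeights (R 4.3.3) on genotype and batch, Benjamini-Hochberg adjusted, threshold 0.05, with fold changes as batch 2 minus batch 1. Library make-up was compared by exact permutation tests (scipy 1.17.1). Pseudogene parents were best BLAST 2.17.0 matches. Alternatives were edgeR 4.0.16, DESeq2 1.42.0, other scalings, filters and designs, samples left out and removal of length or GC trends. GC trends and edgeR without WT replicate 4 were added after the data were seen. Scripts were tested on simulated counts. Samples, gene lists and classes were chosen with earlier results of these data known, and the end-overlap, GC and pseudogene classes after seeing the values. Named genes were Smchd1, the 12 largest calls each way (mean log2 CPM of at least 3, no overlap of batches, same direction in both genotypes), the 3 of smallest p per RNA type, 4 per list and all mitochondrial and sex-linked genes. Some genes are not reported here.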

Additional observations from a re-analysis of the deposited data

Results flagged for a closer look

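For 5 of the named genes the batch difference had opposite signs in WT and in null samples, in every sample of each, as it had for 1408 of all tested genes. The interaction of genotype and batch, on the log2 scale, was 1.55 for Atp10d, -1.25 for Cd68, -1.81 for Rbfox3, -1.38 for Mx2 and -0.68 for mt-Atp6. None of the 5 passed (limma adjusted p 0.999 for each, unadjusted p 0.0112 for mt-Atp6 and 0.0986 to 0.304 for the others), and 0 of 13107 genes did. mt-Atp6, a subunit of ATP synthase, was at 1167 CPM in WT replicate 2 and at 1653 and 1546 CPM in WT replicates 3 and 4, and at 1212 and 1242 CPM in null replicates 1 and 2 and 1054 CPM in null replicate 3. The other 4 had 3 to 42 counts in a sample.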

How the results depend on the processing

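Against 1479 calls (723 higher in batch 2, 756 higher in batch 1), edgeR gave 240 (111 and 129), DESeq2 480 (187 and 293) and voom without sample weights 209 (93 and 116), and all of these were among the 1479. Removing the GC trend gave 796 (372 and 424) and removing length and GC trends 746 (433 and 313). Without the filter on low counts 444 genes were higher in batch 2. Leaving out 1 sample gave from 1 call, without WT replicate 2 or without null replicate 3, to 1348 without WT replicate 4. Without null replicate 1 there were 390, without null replicate 2 696 and without WT replicate 3 664. edgeR without WT replicate 4 gave 1546, of which 1299 were among the 1479. Over the samples left out in turn, calls higher in batch 2 ran from 1 to 653, those higher in batch 1 from 0 to 695, processed pseudogenes higher in batch 1 from 0 to 161, overlapped genes over 2-fold higher in batch 2 from 0 to 69, and rho of GC from -0.42 to -0.34, the last without WT replicate 2. Processed pseudogenes higher in batch 1 (212) numbered 47 by edgeR, 95 by DESeq2, 44 without sample weights, 45 with the length trend removed and 28 with both removed. Genes overlapped at the 3′ end and over 2-fold higher in batch 2 (78) numbered 26 by edgeR, 19 by DESeq2, 24 without weights, 44 with at least 10 counts in every sample and 50 after thinning to the smallest library. Across all genes, rho of length with the fold change (0.35) was 0.18 without the filter, -0.0247 with the length trend removed, 0.28 with the GC trend and -0.12 with both, and rho of GC (-0.42) was -0.14 without the filter, -0.0204 with the GC trend removed and -0.00907 with both. The batch difference in rho of log-CPM with length (0.043) was 0.067 over tested genes only. With both trends removed, Hnrnpr (-0.0083, adjusted p 0.974) and Apc (-0.016, adjusted p 0.948) changed sign. Of 118 called genes named by the rule, 118 held with relative log expression factors, 117 without the genotype term and 47 by edgeR. For the tools, filters and thinning the cause was not tested. No paired analysis was possible because each replicate number lies in 1 batch only among the 6 samples. The library of lowest depth puts 3 counts at 1.11 CPM, and levels under it rest on fewer counts in that library.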
